A study of Homo sapiens with 4 samples.

Results

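The mRNAs described here code for proteins that store iron (FTH1 and FTL), import it (TFRC), sense it (ACO1 and IREB2) and free it from heme (HMOX1). They were taken by gene name from the deposited RIP-seq values, in which these 6 of 13300 gene names held 17 of 34975 listed transcripts. The listed transcripts of a gene were kept apart and were also summed to a gene total. All 6 gene totals averaged 1 FPKM or more and were tested. FPKM is the number of sequenced fragments scaled to transcript length and to the mapped fragments of the library. Levels of different genes are set side by side on this scale only roughly. The parts of sequence shared with pseudogenes and of transcript length, described below, were not tested.

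RNA immunoprecipitation sequencing (RIP-seq) sequences the RNAs held by a protein that an antibody pulls from a cell lysate. The 2 KIAA1429 RIP libraries were made with an antibody against KIAA1429 (also named VIRMA), a subunit of the complex that writes N6-methyladenosine (m6A) on mRNA, and the 2 IgG RIP libraries with normal IgG, which gives the background. Both groups came from HCCLM3, an established human hepatocellular carcinoma cell line with high metastatic potential, and no drug, knockdown or time point set them apart. The comparison asks which RNAs were recovered with KIAA1429 beyond that background. The labels set the groups apart by the antibody alone (IgG or anti-KIAA1429), both groups rest on 1 cell line, and the labels do not say whether the libraries of a group came from separate cultures. The p-values below therefore set a difference against the spread between these libraries, which may be technical. In the test used (limma), the spread of each gene is drawn toward that of genes of similar level. No library of input RNA was used here.

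Ferritin is a hollow shell built from a heavy chain (FTH1), which oxidises iron, and a light chain (FTL), which helps to lay down the mineral core. The iron regulatory proteins IRP1 (encoded by ACO1) and IRP2 (encoded by IREB2) bind a stem-loop, the iron-responsive element, when cell iron is low. Binding in the 5′ UTR blocks translation of the ferritin mRNAs, and binding in the 3′ UTR protects the mRNA of the transferrin receptor TFRC from decay. HMOX1, heme oxygenase 1, opens the heme ring and releases its iron. Hepatocytes are a main site of iron storage in the body.

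The elements that tie these mRNAs together can be read in the reference sequence. A strict form of the element was searched on the sense strand of each spliced transcript, namely a C, 5 bases, the 6-base loop CAGTGN and 5 bases that pair with the first 5, with G-T pairs allowed. The most abundant listed transcripts of 3 of the 6 genes held it. All coordinates are those of GRCh37, the sequences run 5′ to 3′ along the mRNA, and the loop is in capitals. The ferritin genes held 1 match each, in exon 1 of 4 and in the 5′ UTR, on the minus strand at chr11:61735046-61735074 for FTH1 and on the plus strand at chr19:49468592-49468620 for FTL.
FTH1 5′ UTR: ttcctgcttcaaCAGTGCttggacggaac
FTL 5′ UTR: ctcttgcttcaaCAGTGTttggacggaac

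TFRC held 4 matches, all in the 3′ UTR in exon 19 of 19, on the minus strand of chromosome 3. They lay 947, 1351, 1416 and 1463 bases after the stop codon, at chr3:195777850-195777878, chr3:195777446-195777474, chr3:195777381-195777409 and chr3:195777334-195777362, respectively.
TFRC 3′ UTR match 1: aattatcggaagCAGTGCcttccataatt
TFRC 3′ UTR match 2: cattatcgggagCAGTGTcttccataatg
TFRC 3′ UTR match 3: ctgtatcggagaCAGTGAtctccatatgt
TFRC 3′ UTR match 4: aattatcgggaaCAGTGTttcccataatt

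These letters were rare among the 11090 coding genes whose most abundant listed transcript could be read. A 5′ UTR match was found in 14 of them (0.126%) and a 3′ UTR match in 84 (0.757%). At least 2 matches in the 3′ UTR were found in 2 genes, and 1 gene, TFRC itself, had as many as 4. Among the other iron genes reported here, SLC40A1 held a 5′ UTR match and TF held 1 in its 3′ UTR. No match was found in ACO1, IREB2 or HMOX1, which says only that these letters are not in those transcripts. Elements that depart from the strict form were not searched for in any gene, TFRC included.

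The m6A writer most often acts at the 4-base core GGAC, frequently near the stop codon. The GGAC nearest the stop codon is shown for each mRNA, in capitals, because the precipitated protein belongs to that writer. No m6A was measured in these libraries.
FTH1 (coding sequence, exon 1, chr11:61734842-61734861, minus strand): taccaccaGGACtcagaggc
FTL (3′ UTR, exon 4, chr19:49470098-49470117, plus strand): caagccttGGACcaaatgga
TFRC (coding sequence, exon 19, chr3:195778823-195778842, minus strand): gacgtttgGGACattgacaa
IREB2 (3′ UTR, exon 22, chr15:78790533-78790552, plus strand): tttgtgctGGACccaggaat
ACO1 (3′ UTR, exon 21, chr9:32450392-32450411, plus strand): tgatcacaGGACgttgcttt
HMOX1 (coding sequence, exon 4, chr22:35785890-35785909, plus strand): gacaccaaGGACcagagccc

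Along the mRNA, FTL, IREB2 and ACO1 held their nearest GGAC 116, 58 and 293 bases after the stop codon, respectively. On the same scale TFRC, HMOX1 and FTH1 stood at −19, −187 and −505, where negative values lie upstream. The GGAC of TFRC was thus the closest to the stop codon and that of FTH1 the farthest. FTL was the densest in this core, with 8.04 per kilobase, above 94.2% of the 12928 genes read. TFRC, with 3.59, stood at the median of these genes (3.59), and FTH1 (2.49), ACO1 (2.02), HMOX1 (1.93) and IREB2 (1.90) stood below it. Since 97.9% of these genes held at least 1 GGAC on the sense strand, the presence of the core did not set the iron mRNAs apart.

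The 6 mRNAs spanned a wide range of levels in the precipitates, and none was called different between KIAA1429 RIP and IgG RIP by the test. The ferritin chains were the most abundant, FTL ranking between 4 and 8 of the 13300 gene totals in each library and FTH1 between 77 and 149. The remaining mRNAs were at 8.07 to 32.7 FPKM in each library. Of the 6 gene totals, 0 passed the threshold, which asked for a more than 2-fold difference (log2 beyond 1) together with a limma adjusted p under 0.05. The background was the same, with 0.0% of the 11361 gene totals tested called higher and 0.0% called lower, while 3.17% were higher and 1.43% lower (4.59% in all) at an unadjusted p under 0.05, a level that 0 of the 6 reached. The unadjusted limma p-values of the 6 ran from 0.334 for IREB2 to 0.952 for HMOX1. The mean of log2(FPKM + 1) was higher in KIAA1429 RIP for 5 of the 6, all but HMOX1, beside 51.4% of all gene totals, and their median log2 fold change was 0.28 beside 0.02 over all gene totals. These are precipitates from bulk lysates, so the values give RNA recovered with an antibody rather than mRNA levels in the cells. They do not show how many cells held an mRNA.

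**Figure D1:**
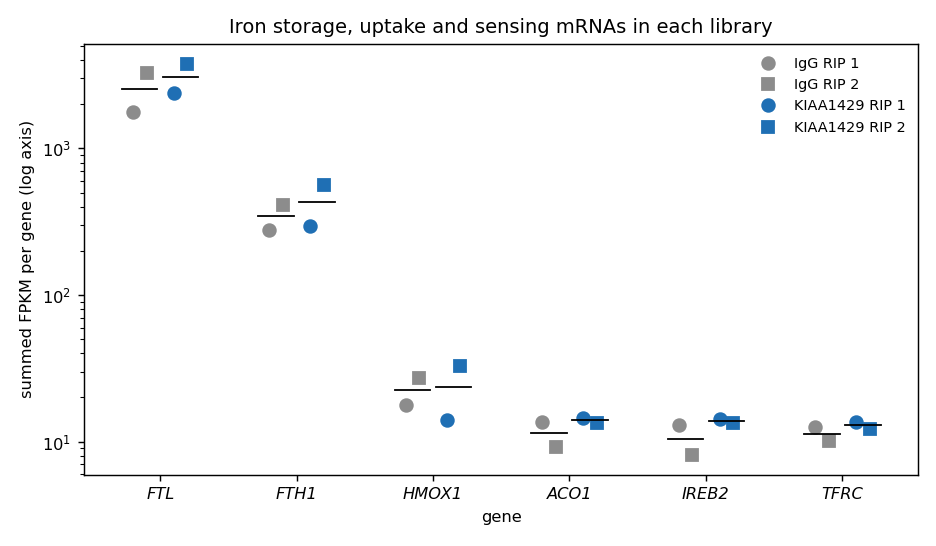
Summed FPKM of each gene (log axis) in the 2 IgG RIP libraries (grey) and the 2 KIAA1429 RIP libraries (blue), with circles for library 1, squares for library 2 and a bar at the mean of each group. FTL lies above 1000 FPKM in every library, and the groups overlap for every gene except IREB2.

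FTL, the light chain of ferritin, was at 1770.4 and 3289.6 FPKM in the IgG RIP libraries and at 2381 and 3793 FPKM in those of KIAA1429 RIP. The second library of each group was the higher one, and the groups overlapped. The means were 2530.0 ± 1074 and 3087 ± 998 FPKM (SD, n = 2 each), a log2 fold change on log2(FPKM + 1) of 0.32 (SE 0.57, 95% interval −1.04 to 1.67, limma adjusted p = 0.9975). A single transcript, FTL-201 (chr19:49468558-49470135, 4 exons), was listed, and it made up 0.599% to 1.11% of the summed FPKM of a library. Part of this value cannot be assigned to the gene with certainty, since 18.5% of the 50-base windows of FTL-201 occur letter for letter in annotated transcripts of other genes, all of them from 2 pseudogenes.

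FTH1, the iron-oxidising heavy chain, was at 276 and 413 FPKM in the IgG RIP libraries and at 295 and 563 FPKM in those of KIAA1429 RIP. Again the second library of each group was the higher one and the groups overlapped. Means of 345 ± 97.0 and 429 ± 190.0 FPKM (SD, n = 2 each) gave a log2 fold change of 0.27 (SE 0.43, 95% interval −0.74 to 1.28, limma adjusted p = 0.9975), and the sign was opposite, at −0.11, after quantile normalization. FTL exceeded FTH1 by 6.41 and 7.96 times in the IgG RIP libraries and by 8.08 and 6.73 times in those of KIAA1429 RIP, so this ratio too overlapped between the groups.

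The FTH1 value shares sequence with other loci to a larger extent than that of any other of the 6. Of the 1154 windows of 50 bases in FTH1-201 (chr11:61731757-61735132), 41.3% occur in 15 other annotated genes, all pseudogenes, of which FTH1P10 alone shares 21.3%. The annotation holds 25 FTH1 and 16 FTL pseudogenes by name, of which 0 were listed in the files. On the opposite strand, exons of BEST1, a chloride channel gene, overlap 880 of the 1203 bases of FTH1-201 (73.2%), and the strand setting of the counting is not given in the sources used here. BEST1 itself was at 0.319 to 1.07 FPKM. How reads were shared between these loci was not tested.

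TFRC, the receptor that takes up transferrin-bound iron, was at 12.6 and 10.1 FPKM in the IgG RIP libraries and at 13.5 and 12.3 FPKM in those of KIAA1429 RIP. The lowest value was that of the second IgG RIP library, and the first IgG RIP library lay between those of KIAA1429 RIP. The means were 11.3 ± 1.81 and 12.9 ± 0.882 FPKM (SD, n = 2 each), with a log2 fold change of 0.18 (SE 0.35, 95% interval −0.66 to 1.01, limma adjusted p = 0.9975). FTH1 exceeded TFRC by 21.9 and 41.1 times in the IgG RIP libraries and by 21.8 and 45.9 times in those of KIAA1429 RIP. Thus the ratio of storage to uptake mRNA moved with the library number and overlapped between the groups. No window of TFRC-201 or HMOX1-201 was shared with another gene.

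The mRNAs of both iron sensors had levels close to that of TFRC. IREB2, which codes for IRP2, was at 12.9 and 8.07 FPKM in the IgG RIP libraries and at 14.25 and 13.3 FPKM in those of KIAA1429 RIP. It was the only one of the 6 gene totals whose libraries did not overlap, and the 2 KIAA1429 RIP values were above the 2 IgG RIP values. Of all gene totals tested, 16.6% were apart in this direction and 15.2% in the other. The means of 10.5 ± 3.42 and 13.8 ± 0.647 FPKM (SD, n = 2 each) gave a log2 fold change of 0.40 (SE 0.38, 95% interval −0.51 to 1.30), which did not pass the test (limma adjusted p = 0.9975). The gap between the groups was narrow, from 12.9 to 13.3 FPKM, beside a difference of 12.9 and 8.07 FPKM between the IgG RIP libraries themselves.

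ACO1 codes for IRP1, which serves as the cytosolic aconitase when it carries an iron-sulfur cluster. It was at 13.7 and 9.13 FPKM in the IgG RIP libraries and at 14.5 and 13.4 FPKM in those of KIAA1429 RIP. The second IgG RIP library was the lowest, and the first lay between those of KIAA1429 RIP. The means were 11.4 ± 3.23 and 14.0 ± 0.806 FPKM (SD, n = 2 each), and the log2 fold change was 0.29 (SE 0.37, 95% interval −0.58 to 1.17, limma adjusted p = 0.9975). It was −0.15 when only the most abundant transcript was taken.

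HMOX1 was at 17.8 and 27.2 FPKM in the IgG RIP libraries and at 14.1 and 32.7 FPKM in those of KIAA1429 RIP. Both IgG RIP values lay inside the range of the KIAA1429 RIP values. The means were 22.5 ± 6.66 and 23.4 ± 13.1 FPKM (SD, n = 2 each), and the log2 fold change was −0.03 (SE 0.46, 95% interval −1.12 to 1.06, limma adjusted p = 0.998). The mean FPKM was thus slightly higher and the mean of the log2 values slightly lower in KIAA1429 RIP. The interval of each of the 6 genes held 0 and also a log2 fold change of 1, so a 2-fold higher level in KIAA1429 RIP lay within the interval of each.

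In order of their mean FPKM, FTL and FTH1 stood clear of all others and of each other in every library. HMOX1 came next, but its lowest value (14.1 FPKM) lay inside the range of ACO1 (9.13 to 14.5 FPKM). The ranges of ACO1, IREB2 (8.07 to 14.25 FPKM) and TFRC (10.1 to 13.5 FPKM) overlapped, although ACO1 was above IREB2 in each of the 4 libraries, by a small margin.

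**Figure D2:**
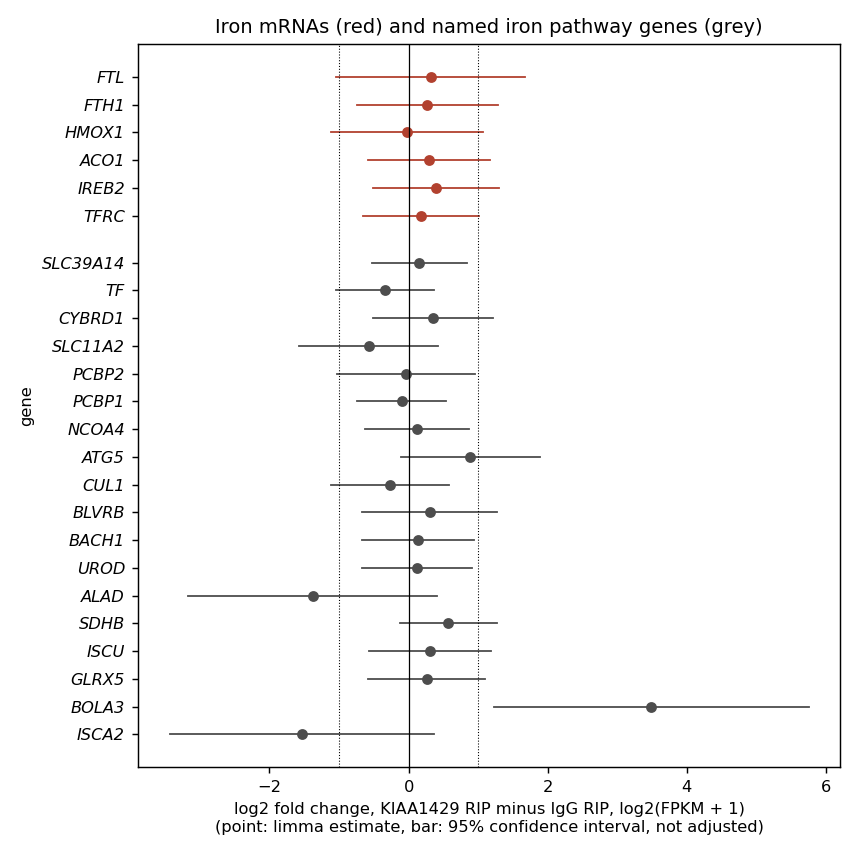
Log2 fold change of KIAA1429 RIP against IgG RIP (point, limma on log2(FPKM + 1)) with its 95% interval (bar) for the 6 iron mRNAs in red and for the named genes of the wider iron pathways in grey, with dotted lines at −1 and 1. All 6 red intervals cross 0, and BOLA3 is the grey gene whose interval does not.

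In IgG RIP the libraries differed from each other by more, in each of these mRNAs, than the groups differed on the log2 scale, and the direction went with transcript length. This pattern was described after the values had been seen and carries no test. FTL, FTH1 and HMOX1, with transcripts of 871, 1203 and 1554 bases, were higher in the second library of each group. The ratios of library 2 to library 1 were 1.86, 1.497 and 1.53 within IgG RIP, respectively, and 1.59, 1.91 and 2.32 within KIAA1429 RIP. FTL and HMOX1 thus reached 1.5 in both groups, and FTH1 only in KIAA1429 RIP. Of the 10459 gene totals above 0 in each library, 23.4% were higher in library 2 of both groups and 5.73% were so by at least 1.5 times.

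TFRC, IREB2 and ACO1, with transcripts of 5012, 6324 and 7443 bases, were lower in library 2 of each group. Their ratios were 0.798, 0.625 and 0.667 within IgG RIP, and 0.908, 0.936 and 0.922 within KIAA1429 RIP. Lower values in library 2 of both groups were found in 35.4% of gene totals. Length classes were made of the 10187 tested genes above 0 in each library whose most abundant transcript was found in the reference. Across these genes, the median log2 ratio of library 2 to library 1 in IgG RIP was 0.16 in the 1098 with transcripts under 1000 bases. It was −0.36 in the 1645 with at least 6000 bases. In KIAA1429 RIP the medians of the length classes lay between −0.08 and −0.01, so the ratios of FTL, FTH1 and HMOX1 stood above the median of their classes in both groups. The part of transcript length in these values was not tested.

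**Figure D3:**
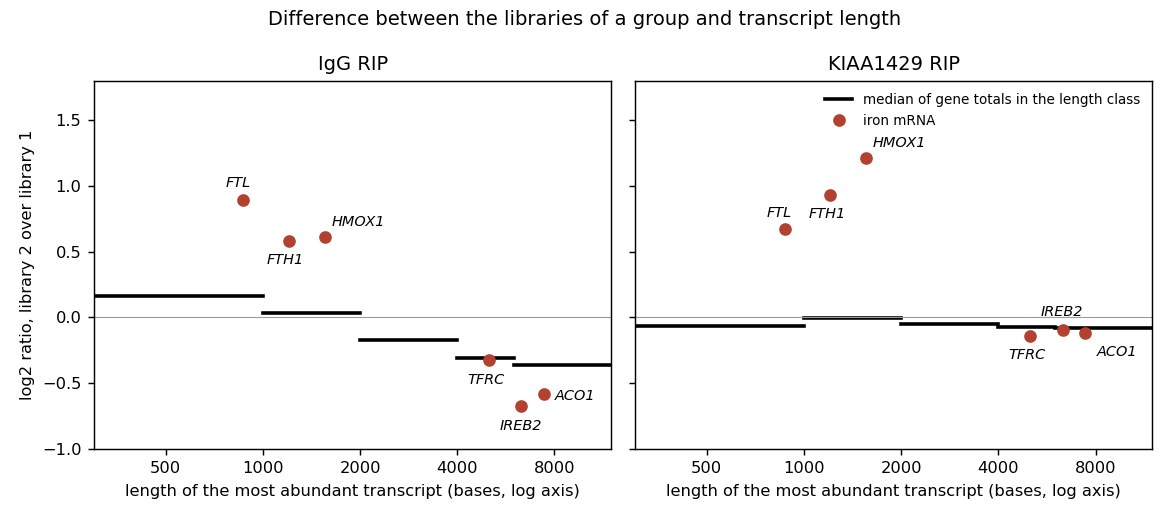
Log2 ratio of library 2 to library 1 (vertical axis) in IgG RIP (left) and KIAA1429 RIP (right) against the length of the most abundant transcript in bases (log axis). Red points mark the 6 iron mRNAs. Black bars mark the median in each length class, over gene totals above 0 in each library with a transcript found in the reference. FTL, FTH1 and HMOX1 lie above 0.5 in both groups, and TFRC, IREB2 and ACO1 lie below 0 in both.

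The difference between the groups also moved with length over the genes of these length classes. The median log2 fold change was 0.27 in the class of FTL (under 1000 bases), 0.12 in that of FTH1 and HMOX1, −0.07 in that of TFRC and −0.09 in that of IREB2 and ACO1. Beside these medians, FTL (0.32) and FTH1 (0.27) lay slightly above their classes, and TFRC (0.18), ACO1 (0.29) and IREB2 (0.40) lay above theirs. HMOX1 (−0.03) lay below its class.

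At the level of single transcripts, 0 of the 16 tested passed the threshold, beside 0.0% of the 23375 transcripts tested in each direction, and 0 of them had an unadjusted limma p under 0.05, beside 3.03% of all higher and 2.33% lower (5.36% in all). Mean log2 values were higher in KIAA1429 RIP for 9 of these transcripts and lower for 7, beside 50.4% higher over all. The limma adjusted p-values ran from 0.879 to 0.9999, and the lowest unadjusted p was 0.221, that of TFRC-201. The groups were apart for IREB2-201, IREB2-204 and TFRC-201, higher in KIAA1429 RIP, and for IREB2-208, lower, where 15.2% of all transcripts tested were apart upward and 14.5% downward. The remaining listed transcript, TFRC-210, was at 1.39 FPKM in the first KIAA1429 RIP library and listed at 0 in the other 3, and was too low to test. In all, 6 of the 17 were listed at 0 in at least 1 library.

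Most of FTH1 came from FTH1-201, at 212 and 344 FPKM with IgG and at 234 and 499 FPKM with anti-KIAA1429, which was 76.7% to 88.6% of the gene total. This transcript followed the order of the gene total in the libraries. FTH1-207 and FTH1-212 did not share its higher value in library 2 of KIAA1429 RIP. FTH1-207 was at 23.8 and 28.6 FPKM with IgG and at 28.6 and 22.0 FPKM with anti-KIAA1429, and FTH1-212 at 17.3 and 28.9 FPKM and at 18.3 and 15.1 FPKM. Both overlapped between the groups. FTH1-204 (8.61 to 11.97 FPKM) and FTH1-202 (3.22 to 4.59 FPKM) were low in each library. The short FTH1-203 was at 7.79 FPKM in the first IgG RIP library and at most 0.0248 FPKM in the others, and FTH1-205, with the same 2 outer ends, was at 10.7 FPKM in the second KIAA1429 RIP library and listed at 0 in the other 3.

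TFRC had a different make-up in 1 library. TFRC-201 was at 4.99 and 10.1 FPKM with IgG and at 12.1 and 11.8 FPKM with anti-KIAA1429 (log2 fold change 0.67, SE 0.48), so the groups were apart. Without the first IgG RIP library the log2 fold change was 0.23. In the first IgG RIP library, however, TFRC-203 was at 7.62 FPKM and held 60.5% of the gene total, while it was listed at 0, at 0 and at 0.465 FPKM in the others. The 2 transcripts share all but 4 of the 4814 bases of TFRC-203 (99.9%), and the gene total, which also holds TFRC-210, overlapped between the groups. The low value of TFRC-201 in that library therefore stood beside a high value of a nearly identical transcript.

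ACO1 showed the like in another library. ACO1-201 was at 13.4 and 9.13 FPKM with IgG and at 7.26 and 13.4 FPKM with anti-KIAA1429, and ACO1-202, 97.5% of whose bases are in ACO1-201, was at 7.26 FPKM in the first KIAA1429 RIP library, at 0.260 FPKM in the first IgG RIP library and listed at 0 in both second libraries. Each transcript held 50% of the gene in the first KIAA1429 RIP library. The sign of the ACO1 difference thus depended on whether the transcripts were summed.

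Of the 4 genes with several listed transcripts, IREB2 had the steadiest share of its main transcript. IREB2-201, which spans chr15:78730531-78793798 in 22 exons, held 67.0% to 71.0% of the gene total in each library, at 9.17 and 5.42 FPKM with IgG and at 9.54 and 9.23 FPKM with anti-KIAA1429. The gap between the groups was from 9.17 to 9.23 FPKM. IREB2-208, a shorter form with 28.4% of its bases in IREB2-201, was at 2.55 and 2.66 FPKM with IgG and at 2.09 and 2.33 FPKM with anti-KIAA1429, apart in the opposite direction. IREB2-204, a fragment of 268 bases, was at 1.20 FPKM and listed at 0 in IgG RIP and at 2.62 and 1.78 FPKM in KIAA1429 RIP.

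**Figure D4:**
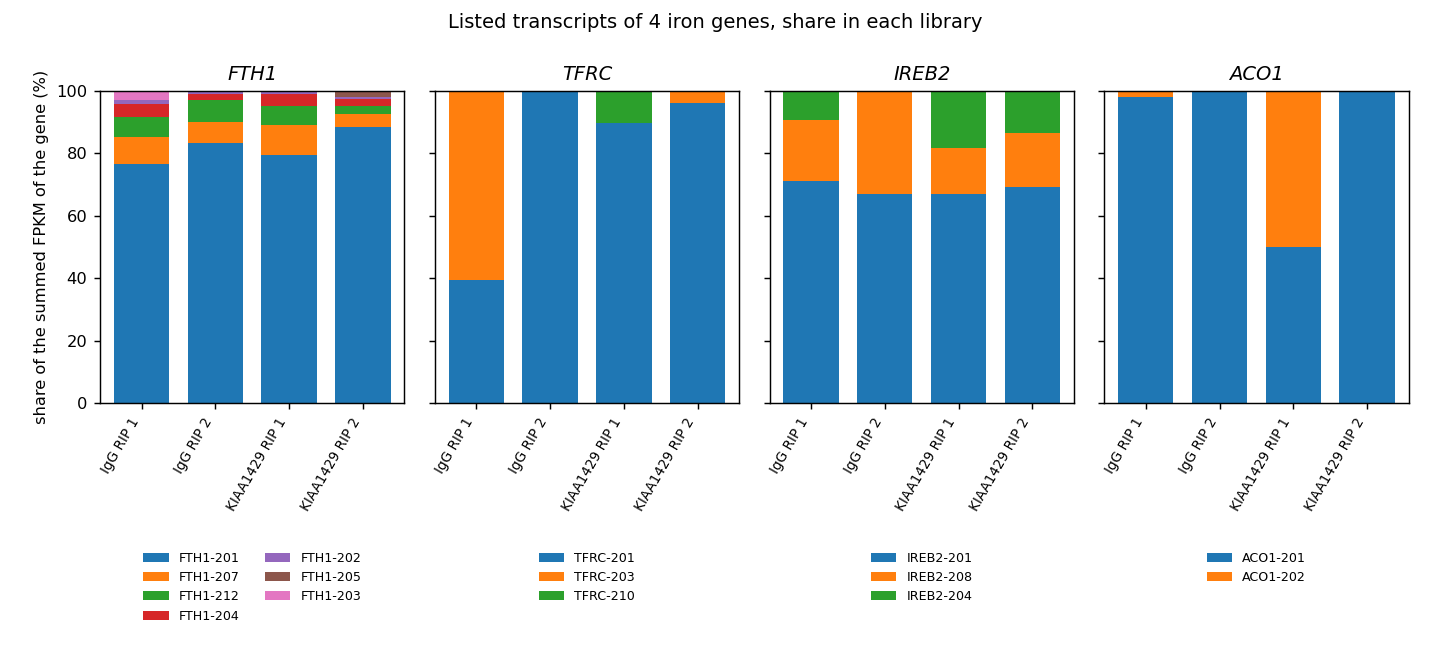
Share of the summed FPKM of FTH1, TFRC, IREB2 and ACO1 (vertical axis, %) held by each listed transcript in each library. TFRC-203 holds 60.5% of TFRC in the first IgG RIP library and ACO1-202 holds 50% of ACO1 in the first KIAA1429 RIP library, whereas IREB2-201 holds 67.0% to 71.0% of IREB2 in each library.

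The wider iron pathways were taken as 65 genes in 4 lists, of which 59 were listed and 56 had a mean of at least 1 FPKM. None of the 56 passed the threshold, beside 0.0% of all gene totals in each direction. At an unadjusted limma p under 0.05, 1 was higher in KIAA1429 RIP (BOLA3) and 0 were lower. The groups were apart upward for 8 and downward for 9 of the 56, beside 16.6% and 15.2% of all gene totals, respectively. The median log2 fold change was 0.15, beside 0.02 over all gene totals.

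In iron uptake and export, 9 of 16 genes were tested, 0 were called, and 0 were apart upward (16.6% of all gene totals) and 3 downward (15.2%), with a median log2 fold change of −0.08. The most abundant were SLC39A14, an importer of iron that is not bound to transferrin, at 41.3 and 36.4 FPKM with IgG and at 46.5 and 40.4 FPKM with anti-KIAA1429, and TF, which encodes transferrin. TF was at 27.9 and 32.5 FPKM with IgG and at 23.2 and 24.0 FPKM with anti-KIAA1429, without overlap (log2 fold change −0.34, SE 0.30, limma adjusted p = 0.9975). CYBRD1, a ferric reductase, was at 15.4 and 22.0 FPKM and at 19.3 and 29.4 FPKM. The most negative value of this list was that of SLC11A2, the divalent metal transporter DMT1, at 10.7 and 8.36 FPKM with IgG and at 7.54 and 4.79 FPKM with anti-KIAA1429 (log2 fold change −0.58, SE 0.42). Neither TF nor SLC11A2 passed the test, although both were apart downward.

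In ferritin loading, turnover and iron sensing, 9 of 10 genes were tested, 0 were called, and 1 was apart in each direction, beside 16.6% of all gene totals upward and 15.2% downward. The iron chaperones that load ferritin were the most abundant. PCBP1 was at 105 and 109 FPKM with IgG and at 99.2 and 101 FPKM with anti-KIAA1429, apart downward by a small margin, whereas PCBP2 was at 179.5 and 284 FPKM and at 159.8 and 304 FPKM and was the higher in library 2 of each group, as FTH1 and FTL were. NCOA4, the receptor that delivers ferritin to autophagy, was at 40.3 and 28.8 FPKM and at 34.4 and 40.0 FPKM. ATG5, an autophagy factor, had the highest log2 fold change of the list (0.88, SE 0.42), at 5.86 and 4.97 FPKM with IgG and at 8.55 and 13.6 FPKM with anti-KIAA1429, and did not pass the test (limma adjusted p = 0.9975). CUL1, a scaffold of the ligase that removes IRP2, had the lowest (−0.27, SE 0.36) with overlapping groups.

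In heme synthesis and breakdown, 13 of 14 genes were tested and 0 were called, with 1 apart upward (16.6% of all gene totals) and 2 downward (15.2%) and a median log2 fold change of 0.13. BLVRB, a biliverdin reductase, was at 31.8 and 31.9 FPKM with IgG and at 26.6 and 58.7 FPKM with anti-KIAA1429. BACH1, a repressor of HMOX1 transcription, was at 41.1 and 27.9 FPKM and at 43.5 and 31.9 FPKM. It was lower in library 2 of each group, as were 35.4% of gene totals, and a link to HMOX1 was not tested. UROD, an enzyme of heme synthesis, was at 21.4 to 33.7 FPKM. ALAD, an early enzyme of the same route, was at 4.53 and 0.821 FPKM with IgG and was listed at 0 and at 0.484 FPKM with anti-KIAA1429. Its log2 fold change, the lowest of those reported for this list, was −1.38 (SE 0.75, limma adjusted p = 0.9975). It was −4.79 with a pseudocount of 0.01 and −0.58 without the first IgG RIP library.

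Among mitochondrial iron and iron-sulfur cluster genes, 25 of 25 were tested and 0 were called, with 6 apart upward (16.6% of all gene totals) and 3 downward (15.2%) and a median log2 fold change of 0.28. SDHB, the iron-sulfur subunit of succinate dehydrogenase, was at 28.9 and 35.3 FPKM with IgG and at 52.0 and 44.2 FPKM with anti-KIAA1429, without overlap (log2 fold change 0.57, SE 0.30, limma adjusted p = 0.9975). ISCU, the scaffold on which clusters are built, was at 21.6 and 32.4 FPKM and at 25.9 and 42.0 FPKM, and GLRX5, a glutaredoxin that passes clusters on, at 15.3 and 20.3 FPKM and at 25.8 and 17.5 FPKM. Both of these overlapped. BOLA3, which helps to deliver clusters in mitochondria, was at 5.98 FPKM and listed at 0 in IgG RIP and at 51.5 and 15.7 FPKM in KIAA1429 RIP. Its log2 fold change of 3.49 (SE 0.95) had an unadjusted limma p of 0.00832 and an adjusted p of 0.993. With a pseudocount of 0.01 the log2 fold change was 6.86, but its SE was 2.86 and its unadjusted limma p was 0.0555. ISCA2, another assembly factor, was at 6.09 and 7.38 FPKM and at 5.12 and 0.157 FPKM (log2 fold change −1.53, SE 0.80), a value that was −0.33 without the second KIAA1429 RIP library.

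The genes most like each member were those with the smallest root mean square difference of log2(FPKM + 1) over the 4 libraries, each gene taken about its own mean, among the 5166 genes with a mean of at least 10 FPKM. They were GNG5 for FTH1 (0.0186), MT-ND1 for FTL (0.0177), AP2M1 for TFRC (0.0197), CEBPG for IREB2 (0.0102), RBL2 for ACO1 (0.0252) and IGFBP6 for HMOX1 (0.0258). The nearest gene was not the only close one, since from 14 genes (HMOX1) to 188 genes (TFRC) of the 5166 lay within 0.1 of a member over the 4 libraries. None of the 6 iron mRNAs was the nearest of another.

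Across the series, the libraries summed to 295573 to 340300 FPKM, and 26.6% to 32.2% of listed transcripts were at 0 in a library. Spearman correlations of gene totals, across genes, were 0.849 between the IgG RIP libraries, 0.872 between those of KIAA1429 RIP and 0.833 to 0.885 between groups. VIRMA, the mRNA of the targeted protein, was at 18.0 and 10.01 FPKM with IgG and at 18.2 and 11.6 FPKM with anti-KIAA1429, which does not check the precipitation of the protein. GAPDH was at 432 and 779 FPKM and at 602 and 1076 FPKM, higher in library 2 as FTL and FTH1 were, and ACTB at 555 and 403 FPKM and at 304 and 224 FPKM (log2 fold change −0.86, unadjusted limma p of 0.0443, adjusted p = 0.9975). Of 10 hepatocyte markers 9 were listed, with ALB at 53.5 to 76.3 FPKM and AFP at 99.1 to 128 FPKM but HNF4A at 0.305 to 1.11 FPKM. Of 4 epithelial markers 3 were listed, with the keratins KRT18 at 820.1 to 1048 FPKM and KRT8 at 259.8 to 432 FPKM but EPCAM at 1.41 to 3.21 FPKM. CDH1 was not among them. Of markers of other cells, 0 of 3 endothelial, 0 of 4 fibroblast and 0 of 5 erythroid genes were listed, and 2 of 6 leukocyte genes were, with CD68 at 34.5 and 72.2 FPKM with IgG and at 28.7 and 43.9 FPKM with anti-KIAA1429, higher in library 2 of each group, and LYZ at 17.5 and 14.8 FPKM and at 9.89 and 15.5 FPKM, lower in library 2 of IgG RIP and higher in that of KIAA1429 RIP. The part of any of these in the iron values was not tested.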

How the data were processed

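RIP-seq was performed by the authors on HCCLM3 cells, and the 4 libraries were grouped by their labels into IgG RIP and KIAA1429 RIP. Per the paper's methods, poly(A) RNA was isolated from the precipitates, fragmented and reverse transcribed with random primers, and reads were aligned to GRCh37/hg19 with HISAT2, whereas the submitters' processing notes name Bowtie2 2.1.0. The authors deposited FPKM per transcript, and the tool that estimated it is not given in the sources used here. Each listed transcript had a mean of at least 0.5001 FPKM in 1 of the groups. Reads could not be recovered from the steps between values (at best 49.3% of genes within 0.1 of a read), so depth is unknown and no counting interval is given.

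FPKM was summed per gene name. Features with a mean of at least 1 FPKM (11361 gene totals, 23375 transcripts) entered a fit of log2(FPKM + 1) by the limma package, version 3.58.1, under R 4.3.3 (two-sided, trend, Benjamini-Hochberg over all features tested). DESeq, named in the paper, needs counts and was not used. Its thresholds were kept (log2 fold change beyond 1, adjusted p under 0.05), but the paper's RIP-seq rule was for enrichment only, and here both directions were called. With its own test the paper reports transcripts with 2-fold enrichment, so the counts called here are not a repeat of its result. A fold change on the log2(FPKM + 1) scale understates that of low genes. The smallest two-sided exact permutation p for 2 against 2 libraries is 0.333. The fit was also run on simulated data, whose outcome is not reported here and gives no measure of what it could detect in these libraries. Sequences and exons came from GRCh37 with the GENCODE release 44 annotation, in which 33938 of the listed transcripts were found. Other steps used Python 3.11.15 with pandas 2.3.3 and numpy 2.4.6.

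The members and the pathway lists were chosen with earlier results of these data known. Some genes of the pathway lists are not reported here, and the list counts leave them out. Named genes were the 6 members with all their transcripts, VIRMA, GAPDH and ACTB, the nearest gene of each member and, from each pathway list, the 3 most abundant, those with an unadjusted p under 0.05 and those with the highest and the lowest fold change. BEST1, CD68 and the sequence matches in other genes were named after their values were seen. Alternatives were other pseudocounts and filters, median and quantile scaling, a replicate block, no trend, the most abundant or only the coding transcripts, and leaving out a library at a time.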

Additional observations from a re-analysis of the deposited data

How the results depend on the processing

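None of the 6 gene totals passed the threshold under any alternative run, with adjusted limma p-values from 0.752 to 1.0. Their direction was kept in 76 of 84 alternatives, but part of this agreement was fixed in advance. The other filters, the replicate block and the fit without trend cannot change a fold change. Taking only the coding transcripts changed that of TFRC alone, and FTL and HMOX1 had a single listed transcript. The direction was opposite for FTH1 under quantile normalization (−0.11) and for ACO1 with the most abundant transcript (−0.15), and otherwise only where 1 library was left out. The count of gene totals past the threshold, 0, was also 0 under each alternative except the replicate block, and that of transcripts was 0 throughout. With the replicate number as a block, 13 gene totals passed (12 higher, 1 lower), with 693 higher and 333 lower at an unadjusted p under 0.05. BOLA3 was the only named gene among them (log2 fold change 3.49, limma adjusted p = 0.00683), and the 6 members had adjusted p-values from 0.879 to 0.992. Same-numbered libraries share only a number in the labels. The correlation of their deviations from the group means was 0.187 over gene totals and 0.0299 over transcripts.

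Leaving out each library in turn, the log2 fold change ran from −0.20 to 0.74 for FTH1, −0.13 to 0.76 for FTL and FTL-201, −0.61 to 0.55 for HMOX1 and HMOX1-201, 0.03 to 0.33 for TFRC, 0.09 to 0.70 for IREB2 and 0.02 to 0.56 for ACO1. The range also crossed 0 for ACO1-201 (−0.55 to 0.25), ACO1-202 (−0.17 to 2.88), FTH1-201 (−0.21 to 0.88), FTH1-202 (−0.10 to 0.30), FTH1-203 (−3.12 to 0.018), FTH1-204 (−0.031 to 0.36), FTH1-207 (−0.23 to 0.13) and TFRC-203 (−2.83 to 0.28), reached 0.0 for FTH1-205 (up to 3.55), and crossed 0 for PCBP2 (−0.50 to 0.43), NCOA4 (−0.11 to 0.36), CUL1 (−0.58 to 0.046), BLVRB (−0.25 to 0.86), BACH1 (−0.14 to 0.41), UROD (−0.20 to 0.44), ISCU (−0.031 to 0.65) and GLRX5 (−0.0077 to 0.52). It kept its sign but moved widely for BOLA3 (2.09 to 4.89), TFRC-201 (0.23 to 1.11), IREB2-204 (0.53 to 1.66), ALAD (−2.18 to −0.58) and ISCA2 (−2.74 to −0.33). In these fits the lone library of a group was assumed to vary like the others. With 2 libraries a group and unknown depth, the intervals of all 6 genes include a 2-fold difference, and how reads were divided between FTH1 or FTL and pseudogenes with the same sequence stretches was not tested.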
